A study of Mus musculus with 26 samples.

Results

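Peaks of RNA 5-hydroxymethylcytosine (5hmC) in mouse genes of the SR splicing factor family are described here. The 10 genes were the classical SR proteins Srsf1, Srsf2, Srsf3, Srsf4, Srsf5, Srsf6 and Srsf7, the SR-related protein Srsf11, and the transformer 2 proteins Tra2a and Tra2b. A peak was assigned to a gene where its summit, the middle of the listed interval, lay between the gene's start and end in the mm9 annotation. Of 56538 peaks in 13 lists, 76 were assigned to the family, and merging of overlapping intervals gave 25 regions of 23367 in all. Peaks were found in 9 of the 10 genes, against 32.2% of the 22380 annotated protein-coding genes, and Srsf2 had none in any list. The 10 genes were chosen with earlier results of these data known, and the 22380 were not limited to expressed genes.

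The peaks came from hMeRIP-seq, in which fragmented RNA is pulled down with an antibody against 5hmC and sequenced beside its input. WT ESC (wild-type mouse embryonic stem cells, n = 3), TKO ESC (embryonic stem cells without Tet1, Tet2 and Tet3, the enzymes that oxidise 5-methylcytosine, n = 3) and WT EB (wild-type embryoid bodies kept 4 days in medium lacking the cytokine LIF, n = 3) were profiled. Tet2-KI ESC (n = 2) carried wild-type Tet2 with a C-terminal tag at its own locus, and Tet2dRBD-KI ESC (n = 2) carried tagged Tet2 without its RNA-binding domain. Both knock-in lines were made in mouse embryonic stem cells by CRISPR and clone picking, so that clone and allele cannot be told apart. The labels of replicate 1 carried the prefix 1608 in WT ESC and TKO ESC and 1610 in WT EB. Replicates 2 and 3 of these groups carried 1703, and the knock-in labels carried no prefix. The labels do not say what the prefix stands for.

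SR proteins carry RNA recognition motifs and a domain rich in arginine and serine. They bind exonic enhancers and help the U1 and U2 particles to find splice sites. Many of these genes control their own output through an ultraconserved exon or retained intron that brings a premature stop codon, so that the transcript is removed by nonsense-mediated decay (NMD). Such exons are often called poison exons.

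The lists held 498 to 10383 peaks, and the number of member peaks ran from 0 in WT EB replicate 1, the shortest list, to 15 in Tet2-KI ESC replicate 1, the longest. Read depth is not known from these files, and a gene without a peak may still carry 5hmC. The kit did not mark strand and the lists give none, but no member summit lay in a second annotated gene. The knock-in lists give positions without fold enrichment. The labelled cell types could not be checked by expression. Peaks were listed in Tet1 in 3 of 3 TKO ESC libraries, in Tet2 in 0 of 3 and in Tet3 in 0 of 3. In WT ESC the counts were 3, 1 and 0 of 3. These counts do not test a knockout, because the rest of a transcript can remain.

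**Figure D1:**
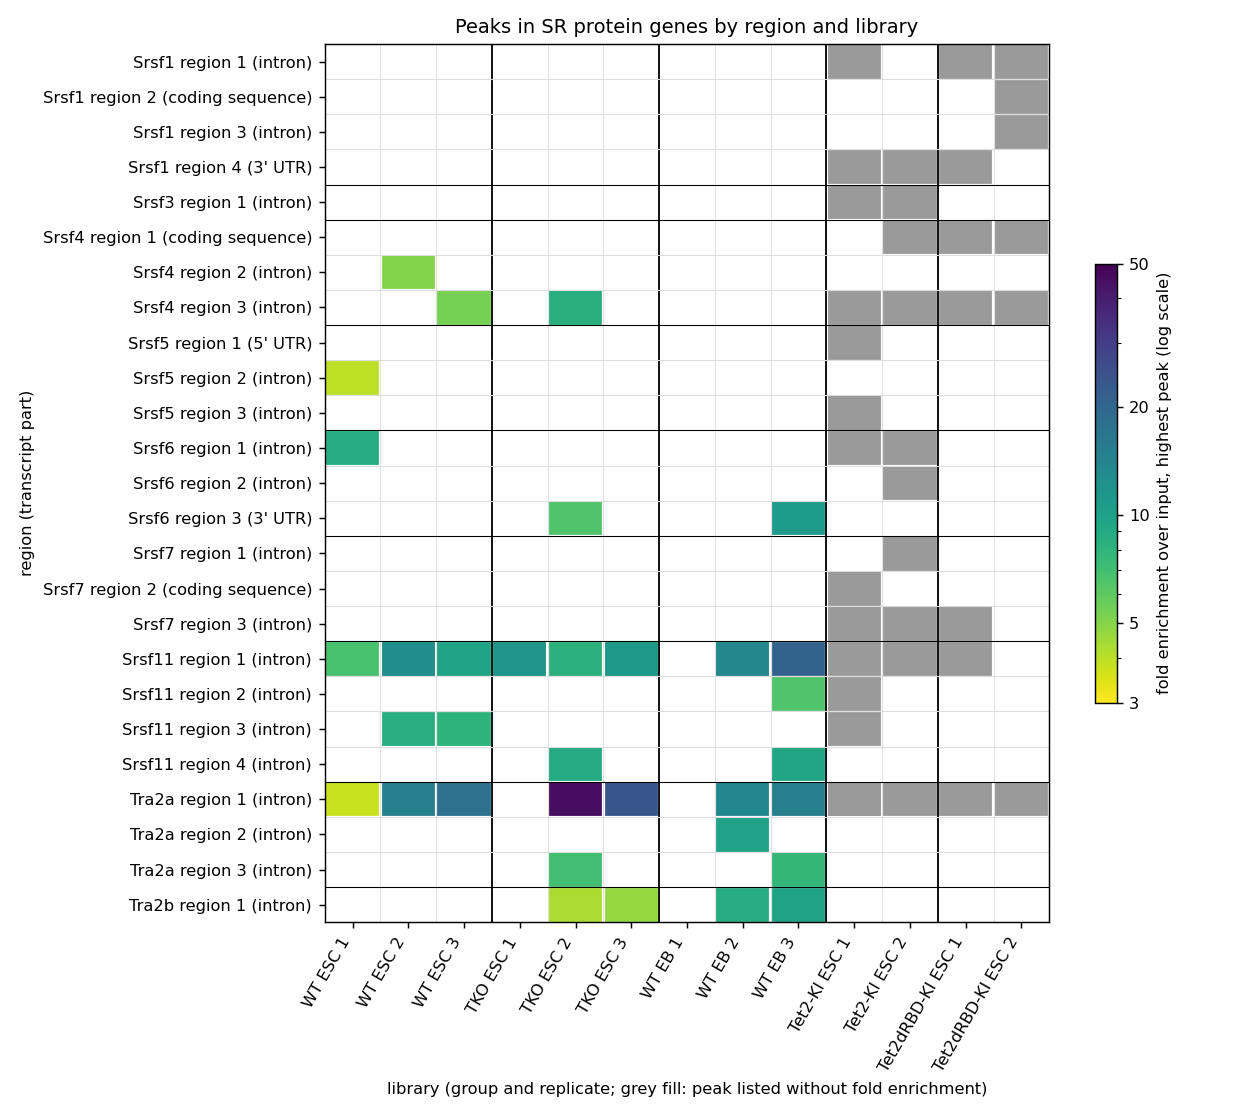
Rows are the 25 regions in SR protein genes with the transcript part of the summit, and columns are the 13 libraries. Filled cells mark a listed peak, coloured by the fold enrichment of the highest peak on a log scale, or grey where the list gives none. Srsf11 region 1 and Tra2a region 1 are each filled in 11 of 13 columns, and Tra2b region 1 only in TKO ESC and WT EB columns.

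The windows below are the 200 bp intervals of the most widely listed region of each gene, on the gene's strand, cut to the stretch outside annotated untranslated regions. They are shown because they are the places where the antibody signal recurred. Capitals mark bases in an exon of a protein-coding transcript. The windows lay at chr3:157675114-157675313 (Srsf11, minus strand), chr6:49202663-49202862 (Tra2a, minus), chr4:131440965-131441122 (Srsf4, plus) and chr16:22258950-22259058 (Tra2b, minus) of mm9.
Srsf11 region 1: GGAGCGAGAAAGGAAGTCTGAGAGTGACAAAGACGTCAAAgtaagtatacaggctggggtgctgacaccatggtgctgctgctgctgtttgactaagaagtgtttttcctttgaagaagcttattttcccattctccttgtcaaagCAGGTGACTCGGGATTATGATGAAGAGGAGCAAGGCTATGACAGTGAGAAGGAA
Tra2a region 1: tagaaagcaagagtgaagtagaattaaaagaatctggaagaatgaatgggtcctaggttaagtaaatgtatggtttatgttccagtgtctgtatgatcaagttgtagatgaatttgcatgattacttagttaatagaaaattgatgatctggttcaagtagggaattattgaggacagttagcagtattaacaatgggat
Srsf4 region 3: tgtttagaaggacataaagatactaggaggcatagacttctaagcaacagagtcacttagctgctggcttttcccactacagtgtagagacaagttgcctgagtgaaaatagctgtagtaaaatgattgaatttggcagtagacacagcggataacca
Tra2b region 1: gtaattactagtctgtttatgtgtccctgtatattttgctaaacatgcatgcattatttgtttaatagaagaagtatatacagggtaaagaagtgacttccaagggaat
The Srsf11 window holds a whole short intron between its flanking exons, and the other windows are intronic for the transcripts that encode protein. The hexamer GAAGAA, of the purine-rich kind bound by transformer 2 proteins, occurs 1 time each in the Srsf11, Tra2a and Tra2b windows and 0 times in the Srsf4 window.

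Tra2a encodes a sequence-specific activator of exon inclusion. Its region 1 (chr6:49202612-49202991) lay in the first intron, which is 11322 bp long, and the highest summit was 248 bp upstream of the next exon. Peaks were listed in all 3 WT ESC libraries, in TKO ESC replicates 2 and 3, in WT EB replicates 2 and 3, and in all 4 knock-in libraries. Fold enrichment over input was 3.74, 14.9 and 17.7 in WT ESC replicates 1 to 3. It was 45.6 and 23.7 in TKO ESC replicates 2 and 3, and 13.8 and 15.1 in WT EB replicates 2 and 3. Both TKO ESC values lay above all WT ESC and WT EB values, and WT ESC replicate 1 was the lowest.

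The peak of TKO ESC replicate 2 stood at percentile 99.9 of its own list by fold enrichment, and that of TKO ESC replicate 3 at 98.8. In WT ESC the percentiles were 9.51, 97.2 and 98.3, so that replicate 1 was among the weaker peaks of its list. The mean fold enrichment was 12.1 ± 7.38 (SD, n = 3) in WT ESC, 34.6 ± 15.5 (SD, n = 2) in TKO ESC and 14.4 ± 0.935 (SD, n = 2) in WT EB. No test was made, since TKO ESC replicate 1 (964 peaks) and WT EB replicate 1 (498 peaks) listed no peak here. Divided by the median of each list, the values were 2.68 and 3.19 in WT ESC replicates 2 and 3, 6.26 and 3.63 in TKO ESC, and 1.90 and 2.13 in WT EB, so the TKO ESC values stood above the others among these libraries, all labelled 1703. The other Tra2a regions lay in the same intron. Region 2 was listed in WT EB replicate 2 alone (9.88), and region 3 in TKO ESC replicate 2 (7.02) and WT EB replicate 3 (7.72).

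Tra2b, the paralogue of Tra2a, is known for an autoregulatory exon in its first intron. Its only region (chr16:22258940-22259207) lay in that intron, which is 10623 bp long, and 3729 bp from the nearest exon of a protein-coding transcript. The region overlapped by 149 bp an annotated exon of 276 bp (chr16:22259059-22259334) that belongs to an NMD transcript. The same stretch is exonic in a retained-intron transcript and in a processed transcript. The Tra2b sequence printed above starts at the first base after that NMD exon, with the intron's gt, and runs downstream.

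The Tra2b peak had a fold enrichment of 4.24 in TKO ESC replicate 2, 4.67 in TKO ESC replicate 3, 8.69 in WT EB replicate 2 and 9.70 in WT EB replicate 3. No peak was listed in any WT ESC or knock-in library, nor in replicate 1 of TKO ESC and WT EB. The WT ESC lists (4395, 7113 and 6499 peaks) were each longer than the 4 lists that held the region (1831 to 4323 peaks). The summits were at positions 22259039, 22259049 and 22259055 in WT EB replicate 2, WT EB replicate 3 and TKO ESC replicate 2, just downstream of the NMD exon, and at 22259107 inside it in TKO ESC replicate 3. Both WT EB values lay above both TKO ESC values, which stood at percentiles 6.22 and 15.2 of their own lists. Of the 851 regions of all genes with a peak in at least 2 TKO ESC and 2 WT EB libraries, 9.87% had no peak in WT ESC, against 1 of 3 such member regions. This grouping was chosen after the values of the Tra2b region had been seen.

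**Figure D2:**
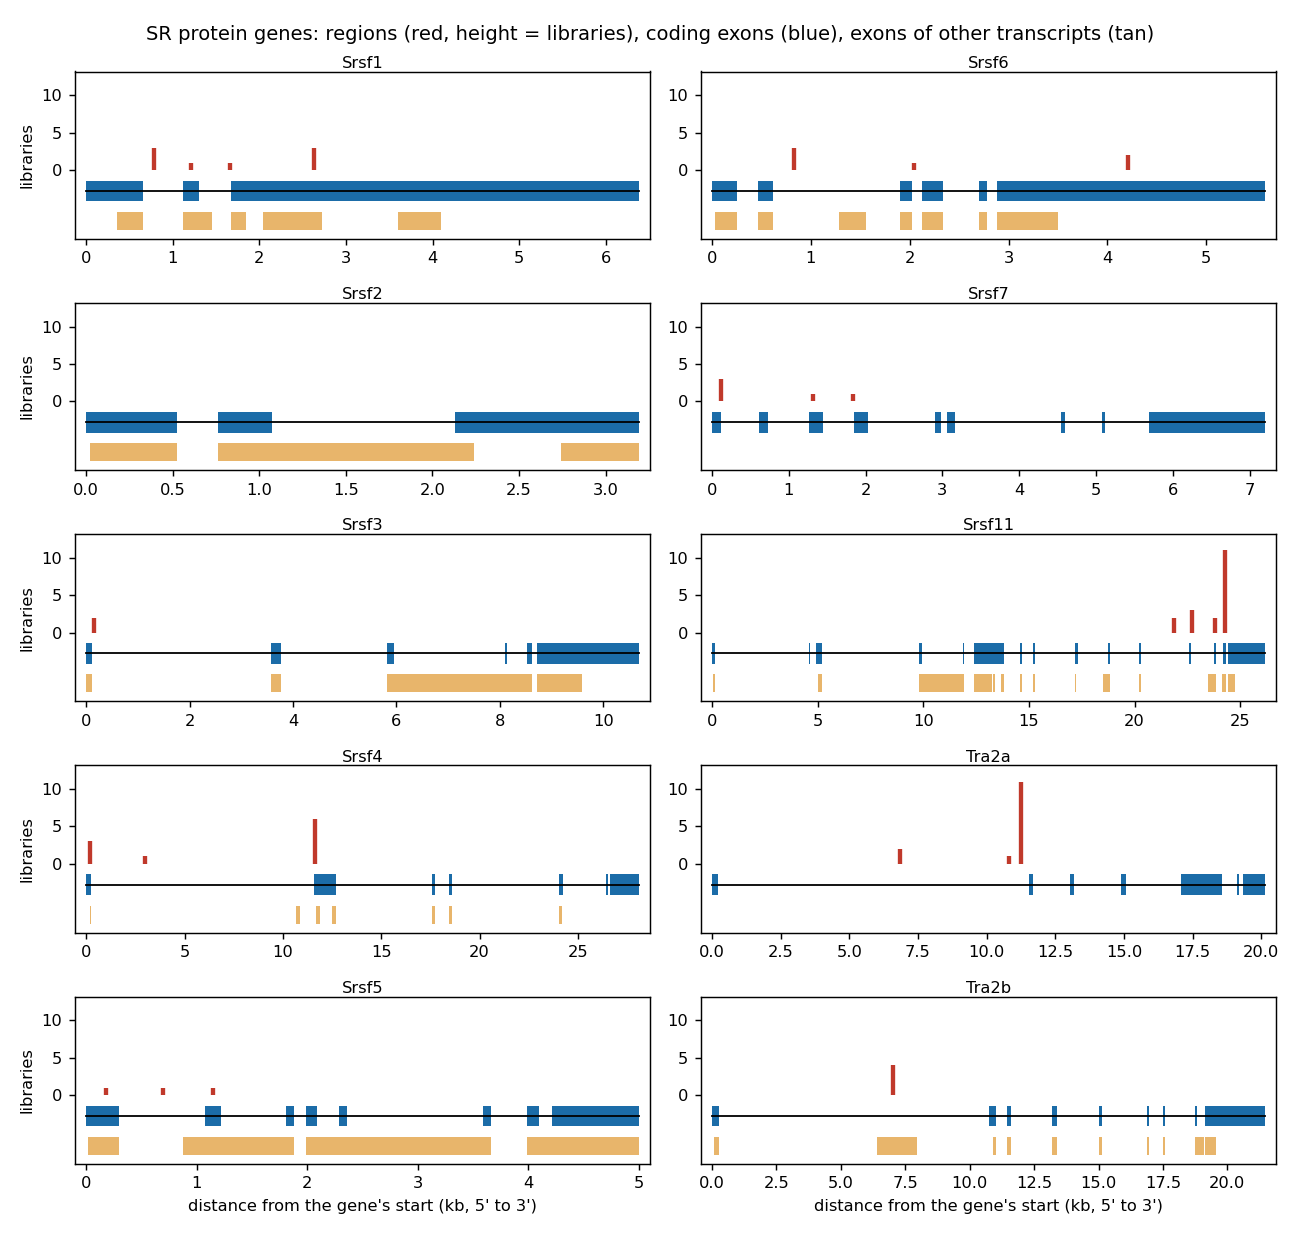
Each panel is a gene, with distance from its start in kb on the x axis, exons of protein-coding transcripts in blue and exons of other transcripts in tan. Red bars mark regions, and their height is the number of libraries with a peak. The Tra2b region stands over a tan exon in the first intron, and the tallest Srsf11 bar (11 libraries) near the 3′ end of the gene.

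Srsf11 encodes an SR-related protein of the spliceosome. Its region 1 (chr3:157675110-157675574) covered the last intron, the 12th of 12, which is 106 bp long, together with the exon of 139 bp before it. The 11 libraries with a peak were all 3 replicates in both WT ESC and TKO ESC, replicates 2 and 3 among WT EB, both Tet2-KI ESC replicates, and replicate 1 alone for Tet2dRBD-KI ESC. The fold enrichment of the highest peak was 6.80, 12.7 and 9.68 in WT ESC replicates 1 to 3. It was 11.5, 8.30 and 11.1 in TKO ESC, and 13.5 and 20.7 in WT EB replicates 2 and 3. WT ESC and TKO ESC overlapped, and both WT EB values lay above them on this scale. Divided by the median of each list, the groups overlapped, with 1.86 in WT EB replicate 2, 2.92 in WT EB replicate 3 and 2.28 in WT ESC replicate 2.

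This was the only member region with a peak in every WT ESC and every TKO ESC library. The mean log2 fold enrichment was 3.23 in WT ESC and 3.35 in TKO ESC, a difference of -0.11 (exact permutation test, two-sided, p = 0.7, 20 relabellings). With 3 against 3 libraries the smallest p is 0.1. The sign of this difference was not stable, since it turned positive on dividing by the median of each list (0.10), on averaging the peaks of the region (0.030) and without WT ESC replicate 1 (0.12). The test was kept to regions with a peak in every library of both groups, and since no member region had one in every WT EB library, it was not run on the WT EB values.

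A second summit inside Srsf11 region 1 was listed in 4 libraries, with fold enrichments of 5.42 (WT ESC replicate 2), 4.81 (TKO ESC replicate 1), 5.44 (TKO ESC replicate 3) and 6.39 (WT EB replicate 2). It lay at 157675446 to 157675474, in the intron before the exon of 139 bp, and within an annotated retained-intron transcript. In each of the 4 libraries it was weaker than the summit in the last intron. Further regions of Srsf11 followed upstream in introns 11, 10 and 9. Region 2 (chr3:157675621-157675941) was listed in WT EB replicate 3 (6.51) and Tet2-KI ESC replicate 1, region 3 (chr3:157676792-157677009) in Tet2-KI ESC replicate 1 and in WT ESC replicates 2 (8.59) and 3 (8.09), and region 4 (chr3:157677640-157677844) in TKO ESC replicate 2 (8.92) and WT EB replicate 3 (9.43). All 4 regions of the gene thus lay in its 3′ part, 21864 to 24390 bp from the start of a gene of 26167 bp.

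**Figure D3:**
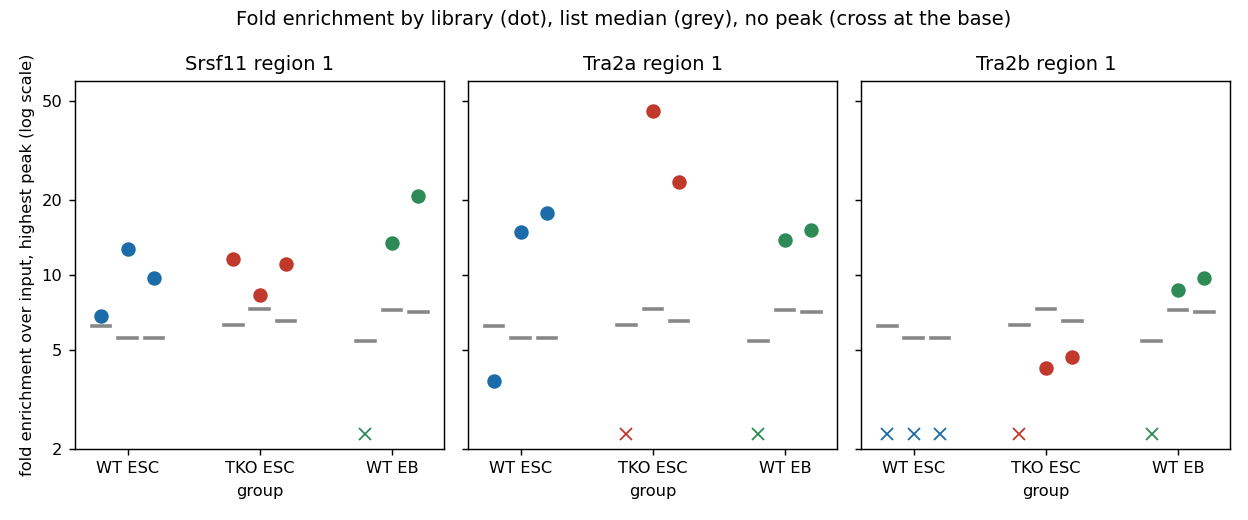
Fold enrichment over input (log scale) of the highest peak in Srsf11 region 1, Tra2a region 1 and Tra2b region 1. Dots are libraries, grey bars the median of each library's list, and crosses at the base libraries without a peak there. The Tra2a dots of TKO ESC (23.7 and 45.6) sit above the others, and the Tra2b panel has no WT ESC dot.

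Srsf11 and Tra2a together held 37 of the 76 member peaks. Each had a peak in 11 of 13 libraries, and 10 libraries had one in both. Presence in at least 11 libraries was found in 1.21% of all regions and in 2 of the 25 member regions.

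Srsf4, a classical SR protein, had a region present in 6 libraries. Region 3 (chr4:131440958-131441415) lay in the first intron of the longest transcript, which is 17336 bp long. It covered the start of an alternative exon (chr4:131441123-131442219) that is the 5′ untranslated exon of a second protein-coding transcript, and an exon of 184 bp (chr4:131441224-131441407) in 2 processed transcripts. Peaks were listed in WT ESC replicate 3 (5.37), TKO ESC replicate 2 (8.47) and all 4 knock-in libraries. The summit lay in the intron in 4 libraries and in the alternative exon in Tet2-KI ESC replicate 2 and WT ESC replicate 3. Srsf4 region 1 (chr4:131429623-131429841), in the coding part of the first exon, was listed in Tet2-KI ESC replicate 2 and in both Tet2dRBD-KI ESC libraries. Region 2 was an intronic peak of WT ESC replicate 2 alone (5.05).

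Srsf1, a classical SR protein that promotes use of weak splice sites, had 4 regions, all of them in knock-in lists only. Region 1 (chr11:87861543-87861775) lay in the first intron, of 457 bp, and was listed in both Tet2dRBD-KI ESC libraries and in Tet2-KI ESC replicate 1. Region 4 (chr11:87863406-87863616) was listed in both Tet2-KI ESC libraries and in Tet2dRBD-KI ESC replicate 1. Its summits lay in the 3′ untranslated region, 26 to 37 bp inside an exon of 119 bp (chr11:87863479-87863597) of 2 annotated NMD transcripts. Regions 2 (coding sequence) and 3 (the second intron) were listed in Tet2dRBD-KI ESC replicate 2 alone.

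Srsf3, the smallest classical SR protein, had a region (chr17:29169670-29169881) across the end of the first exon, with summits 38 and 50 bp into the first intron. It was listed in both Tet2-KI ESC libraries and in neither Tet2dRBD-KI ESC library. Srsf7 region 3 (chr17:80606406-80606611) likewise lay at the end of the first exon, with summits 4 to 10 bp into the intron, in both Tet2-KI ESC libraries and Tet2dRBD-KI ESC replicate 1. The other Srsf7 regions, in the coding sequence and in an intron, were listed in 1 Tet2-KI ESC library each.

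Srsf6 region 1 (chr2:162757967-162758209) lay in the second intron and was listed in WT ESC replicate 1 (8.77) and both Tet2-KI ESC libraries. Srsf6 region 3 (chr2:162761343-162761596), in the 3′ untranslated region, was listed in TKO ESC replicate 2 (6.53) and WT EB replicate 3 (10.8), and region 2 at an exon edge in Tet2-KI ESC replicate 2 alone. Srsf5 had 3 regions in 1 library each, of which region 2 was a weak intronic peak of WT ESC replicate 1 (3.95, percentile 11.6 of its list). The other Srsf5 regions, both of Tet2-KI ESC replicate 1, lay in a 5′ untranslated exon and around the second exon, where a retained-intron transcript is annotated. Srsf2, which also has an annotated NMD transcript, was without a peak in all 13 lists.

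Several regions of the classical SR genes sat near the gene start, and their windows are shown here because they share high G and C content.
Srsf1 region 1: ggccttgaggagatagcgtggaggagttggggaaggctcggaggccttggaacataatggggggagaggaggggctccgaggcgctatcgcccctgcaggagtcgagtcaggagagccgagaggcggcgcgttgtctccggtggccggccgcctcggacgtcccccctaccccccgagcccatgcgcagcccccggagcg
Srsf3 region 1: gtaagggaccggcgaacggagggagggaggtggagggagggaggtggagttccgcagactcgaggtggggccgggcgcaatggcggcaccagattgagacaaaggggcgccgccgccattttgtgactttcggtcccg
Srsf6 region 1: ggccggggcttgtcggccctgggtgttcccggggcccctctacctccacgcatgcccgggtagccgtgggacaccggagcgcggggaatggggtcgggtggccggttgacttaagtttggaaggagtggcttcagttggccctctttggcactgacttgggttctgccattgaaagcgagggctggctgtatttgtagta
Srsf7 region 3: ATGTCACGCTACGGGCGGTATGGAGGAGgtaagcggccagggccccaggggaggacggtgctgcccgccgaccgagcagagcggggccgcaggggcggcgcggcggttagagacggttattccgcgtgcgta
These windows are chr11:87861558-87861757 (plus strand), chr17:29169732-29169869 (plus), chr2:162758004-162758203 (plus) and chr17:80606411-80606542 (minus), with capitals as above. The Srsf3 and Srsf7 windows show the gtaag start of the first intron.

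Of the 25 regions, 7 had their summit within 1000 bp of the gene start, against 13.6% of all regions in coding genes. Of these, 6 had a knock-in peak and 2 a peak in WT ESC replicate 1 (Srsf5 and Srsf6), and none was listed in TKO ESC, WT EB or the other WT ESC libraries. The G and C content of the 200 bp windows ran from 62.5 to 74% in these 7 regions and had a median of 41.25% in the other 18, against 47% over all coding-gene regions. Srsf1 region 2, at 1207 bp from the gene start and 71.5%, was the only one of the 18 within the range of the 7. The share of all coding-gene peaks within 1000 bp of a gene start also differed between lists. It was 15.6% in WT ESC replicate 1, 18.6% in TKO ESC replicate 1 and 18.2% in WT EB replicate 1, and 3.12 to 9.73% in replicates 2 and 3 of these groups. In the knock-in lists it was 9.81 and 11.8% for Tet2-KI ESC, against 16.8 and 42.6% for Tet2dRBD-KI ESC. The part of this list difference in the member result was not tested.

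**Figure D4:**
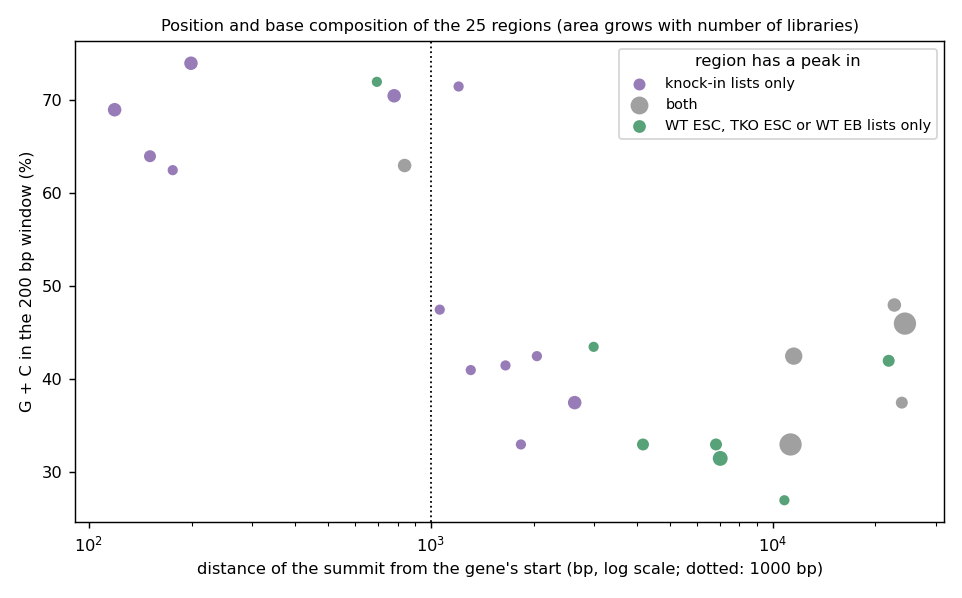
Each point is a region, with the distance of its summit from the gene's start on a log scale and the G and C content of its 200 bp window. Colour gives the lists with a peak, and area grows with the number of libraries. The 7 regions left of the dotted line at 1000 bp all lie at 62.5% or more.

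Over all 13 lists, 62 of the 76 member peaks (81.6%) had an intronic summit, 6 lay in coding sequence, 5 in 3′ and 3 in 5′ untranslated regions. Introns make up 76.0% of the length of the 10 genes. By region, 19 of 25 were intronic, against 70.2% of all regions in coding genes. The window of 10 of the 19 intronic regions held the edge of a coding-transcript exon, against 20.7% of intronic regions in all coding genes. Introns in several of these genes are short, and the part of intron length in this count was not tested. Exon bases of a noncoding or NMD transcript, outside every coding-transcript exon, were held by the windows of 2 of the 19 intronic regions (Tra2b region 1 and Srsf5 region 3), against 3.27%.

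The hexamer GAAGAA was found on the gene strand in 5 of the 25 windows, in Srsf4 (regions 1 and 2), Srsf11, Tra2a and Tra2b, against 18.3% of all coding-gene regions. The pyrimidine run CTCTCT was found in 0 of 25, against 8.07%. The C and T content of the windows ran from 37 to 58.5% with a median of 45%, beside a median of 42.5% over all coding-gene regions. Both shares of windows with a motif describe letters in these windows and no binding.

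Knock-in lists alone held 12 of the 25 member regions, against 34.7% of all regions. These 12 lay in Srsf1, Srsf3, Srsf4, Srsf5, Srsf6 and Srsf7. The 7 regions without a knock-in peak lay in Srsf4, Srsf5, Srsf6, Srsf11, Tra2a and Tra2b, and 6 regions were in both kinds of list. The knock-in and other libraries were not a comparison of the design, and their lists were deposited in different formats, so no test was made.

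The comparison of WT ESC with TKO ESC asks which peaks depend on Tet enzymes. WT ESC libraries listed 4, 5 and 4 member peaks and TKO ESC libraries 2, 7 and 4, a mean of 4.33 in each group. Per 1000 peaks of the list, member peaks came to 0.910, 0.703 and 0.615 in WT ESC and 2.07, 1.62 and 1.23 in TKO ESC, so the groups did not overlap. The mean was 0.743 ± 0.151 (SD, n = 3) against 1.64 ± 0.425 (SD, n = 3). The difference of -0.897 had an exact two-sided permutation p of 0.1, the smallest that 3 against 3 libraries allow (adjusted p = 0.3 by Benjamini-Hochberg over 3 comparisons). The lists of TKO ESC were shorter (964, 4323 and 3262 peaks), and with every list shortened to its 964 peaks of highest fold enrichment the difference was 0.

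Of the 1532 regions with a peak in every WT ESC library, 32.2% had none in TKO ESC. Both member regions of this kind, Srsf11 region 1 and Tra2a region 1, had TKO ESC peaks, so 0 of 2 were lost. In the other direction 1.73% of 346 regions in every TKO ESC library were absent from WT ESC, and 0 of the 1 member region (Srsf11 region 1). With a peak in at least 2 of 3 replicates as the rule, 1 of 3 member regions of WT ESC, Srsf11 region 3, had none in TKO ESC, against 49.7% of all 4173 such regions. In the other direction it was 1 of 3, Tra2b region 1, against 17.4% of 1923. Within the libraries labelled 1703 the same counts of 1 of 3 stood beside 44.3% and 19.8% of all regions.

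The comparison of WT ESC with WT EB asks how peaks change on early differentiation. WT EB libraries listed 0, 5 and 7 member peaks, or 0, 2.73 and 1.98 per 1000, with a mean of 1.57 ± 1.41 (SD, n = 3). The difference from WT ESC was -0.828 (exact permutation test, two-sided, p = 0.4, adjusted p = 0.6). WT EB replicate 1 lay below every WT ESC library and the other WT EB replicates above. Without WT EB replicate 1 the difference was -1.61 (exact permutation p = 0.1, the smallest that 3 against 2 libraries allow). Without WT EB replicate 2 it was -0.248 (exact permutation p = 0.8). With every list shortened to 498 peaks it was -1.34 (exact p = 0.8), and among peaks at or above the median of their list -1.68 (exact p = 0.4). Of the regions in every WT ESC library, 54.9% had no peak in WT EB, and 0 of the 2 member regions. Of 115 regions in every WT EB library, 2.61% were absent from WT ESC, and no member region was in every WT EB library. With a peak in at least 2 of 3 replicates as the rule, 1 of 3 member regions of WT ESC (Srsf11 region 3) had none in WT EB, against 67.8% of all regions, and 1 of 3 of WT EB (Tra2b region 1) had none in WT ESC, against 21.9%. Among libraries labelled 1703, the same 1 of 3 stood beside 63.9% and 23.7%.

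**Figure D5:**
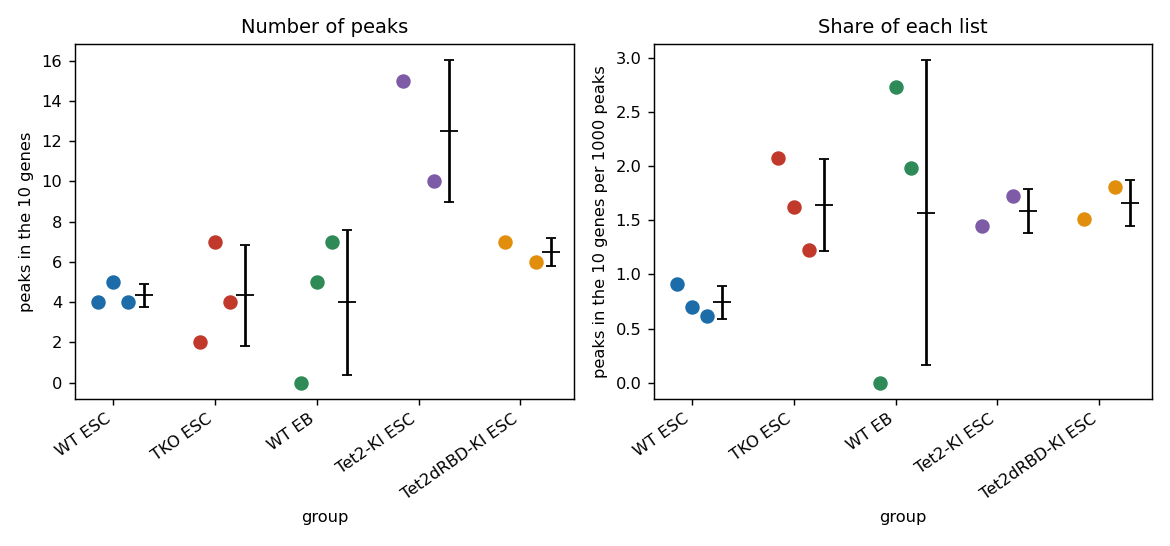
Peaks in the 10 genes by library (left) and the same per 1000 peaks of the list (right). Dots are libraries, and the black marks give the mean and SD of each group. WT ESC and TKO ESC have the same mean number, 4.33, and differ on the right, where WT ESC lies at 0.615 to 0.910.

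The comparison of Tet2-KI ESC with Tet2dRBD-KI ESC asks whether the RNA-binding domain of Tet2 bears on 5hmC sites. The Tet2-KI ESC libraries listed 15 and 10 member peaks and the Tet2dRBD-KI ESC libraries 7 and 6. Per 1000 peaks they came to 1.44 and 1.73 against 1.51 and 1.81, with means of 1.59 ± 0.202 and 1.66 ± 0.212 (SD, n = 2 each). These values overlapped, and the difference of -0.0714 had an exact permutation p of 0.667 (two-sided, adjusted p = 0.667). With 2 against 2 libraries the smallest p is 0.333. Peaks were listed in 8 member genes for Tet2-KI ESC and 5 for Tet2dRBD-KI ESC, beside 22.3% and 16.3% of all coding genes.

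Of 2999 regions in both Tet2-KI ESC libraries, 35.6% had no peak in Tet2dRBD-KI ESC, and 2 of 7 member regions, Srsf3 region 1 and Srsf6 region 1. Of 1373 regions in both Tet2dRBD-KI ESC libraries, 15.8% had none in Tet2-KI ESC, and 0 of 4 member regions. The first count was 4 of 10 without Tet2-KI ESC replicate 1 (55.4% of all regions then tested), 7 of 13 without Tet2-KI ESC replicate 2 (69.3%), 5 of 7 without Tet2dRBD-KI ESC replicate 1 (66.9%) and 2 of 7 without Tet2dRBD-KI ESC replicate 2 (40.1%). The reverse count was 1 of 4 without Tet2-KI ESC replicate 1 (26.9%), 1 of 4 without Tet2-KI ESC replicate 2 (26.4%), 2 of 6 without Tet2dRBD-KI ESC replicate 1 (49.2%) and 0 of 7 without its replicate 2 (30.3%).

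The intronic share of member peaks was 100, 100 and 75% in WT ESC, 100, 85.7 and 100% in TKO ESC, and 100 and 85.7% in WT EB replicates 2 and 3. It was 73.3 and 70% for Tet2-KI ESC, beside 71.4 and 66.7% for Tet2dRBD-KI ESC. WT ESC and TKO ESC overlapped and differed by -3.57 percentage points (exact permutation p = 1), as did WT ESC and WT EB (-1.19, exact p = 1, 3 against 2 libraries). The knock-in groups also overlapped (2.62, exact p = 0.667). Adjusted over the 3 comparisons each p was 1. Each share rests on 2 to 15 peaks. When exons of all annotated transcripts were counted as exonic, the difference between WT ESC and TKO ESC became 27.9 points (exact p = 0.1), as 4 TKO ESC summits of Tra2b and Srsf11 and 1 WT ESC summit of Srsf11 then left the intronic class.

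Other genes of SR protein biology were taken as a list of 48, of which 47 were found in the annotation. A peak in at least 1 library was listed for 41 of the 47, beside 9 of the 10 members and the share of coding genes given above. Expression of these genes was not measured here, and its part in these counts was not tested. By group, 36 of the 47 had a peak in WT ESC, 28 in TKO ESC, 30 in WT EB, 37 in Tet2-KI ESC, and Tet2dRBD-KI ESC had 33. For the 10 members the counts were 5, 5, 4, 8 and 5. Over all coding genes the shares with a peak were 19.7%, 11.4%, 8.32%, 22.3% and 16.3% in the same order of groups. Among the other classical SR proteins, Srsf10 had a peak in 8 libraries, Srsf9 in 1 and Srsf12 in 0. Of the SR protein kinases, which phosphorylate the arginine and serine domain, 5 of 7 had a peak, and the matrix proteins Srrm1, Srrm2, Srrm3, Srrm4 and Son all did (5 of 5).

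A region present in at least 12 libraries, which no member had, was found in 9 of the 47 genes, against 0.518% of all coding genes. The 47 genes, like the members, were chosen with earlier results known, and all coding genes include those not expressed here. Pnn and Prpf38b had a coding-sequence region in all 13 lists, with a mean fold enrichment of 5.48 and 5.70, and so did Snrnp70, the U1 subunit that contacts SR proteins (3.82). Regions in 12 lists were found in Srrm2 (6.58, intron), Zrsr2 (8.58, intron), Luc7l3 (9.34, coding sequence), Rbm25 (7.03, intron), Pnisr (21.0, coding sequence) and Zranb2 (8.70, intron). Means are over those of the 9 libraries with fold enrichment that listed the region.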

How the data were processed

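The authors removed rRNA, tRNA and low-complexity reads, trimmed with Trimmomatic, mapped with STAR to mm9, used MACS2 to call peaks and summits in every IP library over the input of the same sample (q-value below 0.05) and set each peak to 100 bp either side of its summit. Peaks were called for each replicate by itself. The deposited lists hold these intervals of 200 bp and, for 9 of 13 libraries, a ratio, the fold enrichment over input. Versions are not given in the sources used here. The 13 input libraries were not analysed here, and read depth is unknown.

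Members and lists were chosen with earlier results of these data known. Genes came from GENCODE mouse release 1 on NCBIM37, the build of the files (0 intervals passed a chromosome end). Intervals overlapping by at least 1 bp were merged. A summit in an exon of a protein-coding transcript was exonic. Each region was represented by its peak of highest fold enrichment, or by the middle peak in knock-in lists. Regions in every replicate of a group or in at least 4 libraries were to be described singly and the others by counts. The others are also named with their libraries, a choice made after their values were seen. Motifs GAAGAA and CTCTCT were searched on the gene strand of the 200 bp window only. Sequences are of the most widely listed region of a gene that had at least 100 bases outside untranslated regions. Groups came from the labels and were compared with exact two-sided permutation tests over libraries. Each p-value is the share of relabellings with a difference in means at least as large in size as the observed one. No pair of lists shared more than 1.97% of intervals exactly. In simulated lists, 200 of 200 regions planted in every WT ESC list, away from other sites, were recovered as absent from TKO ESC (Python 3.11.15, numpy 2.4.6). This layout fixed the recovery, so it checks the steps and not their sensitivity. The alternatives covered overlap, exon class, list length, label prefix, replicate block and each left-out library.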

Additional observations from a re-analysis of the deposited data

How the results depend on the processing

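Of 126 alternatives, 91 kept the direction or the count. Member peaks per 1000 peaks changed sign as log2(number of member peaks + 1), which leaves out list length and takes a log, to 0.11 (WT ESC against TKO ESC), 0.55 (WT ESC against WT EB) and 0.83 (Tet2-KI ESC against Tet2dRBD-KI ESC) (the cause was not tested), and came to 0 for WT ESC against TKO ESC and -1.34 for WT ESC against WT EB with shortened lists. With peaks at or above the list median the latter was -1.68. Without 1 library they ran from -1.10 to -0.680, from -1.61 to -0.248 and from -0.221 to 0.0783 for these 3 comparisons. In the libraries labelled 1703 the first 2 differences were -0.764 and -1.70 (2 against 2, exact permutation p = 0.333). The intronic share with exons of all transcripts came to 27.9, 19.3 and -4.05 points, and with any overlap of a coding exon to 10.95 (WT ESC against TKO ESC), -11.9 (WT ESC against WT EB) and -7.62 (knock-in lines). Without 1 library it ran from -8.33 to 4.76, from -8.33 to 7.14 and from 0.238 to 5. Log2 fold enrichment of Srsf11 region 1 came to 0.10 over the list median and 0.030 as the mean over peaks, and ran from -0.33 to 0.12 without 1 library. Regions in every replicate of a group and absent from the other numbered 1 with a peak in 2 of 3 replicates and 1 in the libraries labelled 1703, for WT ESC against TKO ESC, WT ESC against WT EB and both reverse directions, each of 3 member regions tested, where 17.4 to 67.8% (2 of 3) and 19.8 to 63.9% (1703) of all regions were called. Without 1 library these 4 counts ran from 0 to 1. They were 1 of 3 without WT ESC replicate 1 (41.5% of all regions absent from TKO ESC and 60.7% from WT EB), 1 of 3 for TKO ESC without its replicate 1 (18.8%) and 1 of 3 for WT EB without its replicate 1 (22.2%). The knock-in count ran from 2 of 7 (40.1%) to 7 of 13 (69.3%) and its reverse from 0 of 7 (30.3%) to 2 of 6 (49.2%). 

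With the replicate block, the mean difference in member peaks per 1000 was -0.897 for WT ESC against TKO ESC (exact sign-flip p = 0.25, the smallest for 3 pairs). Deviations of same-numbered libraries correlated by 0.0168 to 0.0857 for WT ESC against TKO ESC, and of different-numbered ones by -0.0549 to 0.00985. For WT ESC against WT EB these were -0.0150 to 0.0355 and -0.0536 to 0.0258. Replicate 1 of WT ESC and TKO ESC shares the prefix 1608, so the number partly follows the label. The knock-in values, 0.00396 and -0.00396, can differ only in sign with groups of 2 and cannot show pairing. These values do not settle whether the numbers pair the samples, and the block changed no call. Lists of 498 to 10383 peaks, groups of 2 or 3 libraries and at most 15 member peaks in a library limit what could be seen.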
